A study of Homo sapiens with 9 samples.

Results

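The regions described here are 857 accessible regions of Jurkat cells that had a FAIRE peak in 3 of the 4 peak lists of the series, those labelled NS DMSO, SW DMSO and SW rottlerin, and no peak in the list labelled NS rottlerin. They were selected on these presence and absence calls alone, out of 40703 merged regions on chromosomes 1 to 22, X and Y. Peaks of different lists were merged where they overlapped or touched. Of the 11698 regions with a peak in the first 3 lists, 10841 also had one in the NS rottlerin list, so the 857 members are 7.33% of them. The same kind of gap was seen for the other lists. A peak was missing only in SW DMSO at 13.4% of the regions of the remaining 3 lists (1679 regions) and only in SW rottlerin at 3.02% (338 regions). Because peak calls chose the members, the absence of an NS rottlerin peak and the presence of the others are descriptions of the choice and not findings.

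Formaldehyde-assisted isolation of regulatory elements (FAIRE) recovers DNA that is not wrapped in nucleosomes, which is mostly found at promoters and enhancers in use. Jurkat Clone E6-1 is a human T cell leukaemia line in which PMA, an activator of protein kinase C, and ionomycin, a calcium ionophore, together mimic signalling from the T cell receptor. Rottlerin is used as a protein kinase C inhibitor. In T cells, calcium moves NFAT factors into the nucleus, protein kinase C signalling raises AP1 and NFkB activity, and RUNX, ETS, GATA and E-protein factors hold the enhancers of the T lineage open.

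The series has 9 samples, 1 library in each group, and 4 of them were used. NS cells received DMSO, or rottlerin at 15 µM for 1 h, and no stimulus. SW (stimulus withdrawal) cells received the same pre-treatments, PMA and ionomycin (for 4 h according to the labels and a shorter time according to the methods), a wash and 1 day of culture. The input is a mixture of DNA from unstimulated and stimulated cells, and one input served every list. The NS DMSO, SW DMSO, NS rottlerin and SW rottlerin lists held 18977, 20132, 23835 and 30409 peaks, so the list without the members' peaks is longer than both DMSO lists. With 1 library in each group there is no replicate error, no test and no p-value here, and the intervals below are 95% intervals that cover the counting of regions only. A peak list does not give the depth of its library, which is unknown, and a missing peak means that none was called and not that the DNA was closed.

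Whether each list holds the cell state that its label names was not settled. The methods of the study describe peak calling on cells pre-treated with DMSO, in all its states, whereas the labels attach peak lists to DMSO and to rottlerin samples. Merging the lists analysed here gave exactly the number of regions that the methods state for the pooled lists of DMSO cells, before and after regions on other sequences were left out. The lists may therefore be those of the DMSO states, stimulated and restimulated cells included, and the names NS rottlerin and SW rottlerin, and any difference between lists, would then not refer to rottlerin. In the lists themselves, an AP1 site lay in 16.9% (16.2 to 17.7) of the 10058 regions with an NS rottlerin peak and no NS DMSO peak, against 5.55% of the NS DMSO regions, 30.2% of the regions with an SW DMSO peak and no NS DMSO peak and 21.1% of the regions with an SW rottlerin peak and no NS DMSO peak. List names below are the names of the labels and no more. The T cell markers fixed for the line had a peak within 1 kb of a transcription start site (TSS) at 6, 6, 7 and 8 of 11 genes in the 4 lists, in the order NS DMSO, SW DMSO, NS rottlerin and SW rottlerin. The B cell and the myeloid markers had one at 0 of 5 genes each in every list.

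Sequences of members are shown first, because the rule that chose the members used no sequence. The aligned sites further below were picked because they hold the motif. The 3 windows below are the central 300 bp of members near NAPA (a membrane fusion adaptor), PITPNM2 (a phosphatidylinositol transfer protein) and LCK (the kinase that starts T cell receptor signalling). They are given 5′ to 3′ on the plus strand of hg19 (GRCh37), in lower case. Capitals mark every NFAT (TGGAAA), RUNX (TGTGGT or TGCGGT), E-box (CACCTG) and AP1 (TGACTCA or TGAGTCA) match, on either strand, so that a match on the minus strand reads as its reverse complement.
NAPA, chr19:48021450-48021749, plus strand: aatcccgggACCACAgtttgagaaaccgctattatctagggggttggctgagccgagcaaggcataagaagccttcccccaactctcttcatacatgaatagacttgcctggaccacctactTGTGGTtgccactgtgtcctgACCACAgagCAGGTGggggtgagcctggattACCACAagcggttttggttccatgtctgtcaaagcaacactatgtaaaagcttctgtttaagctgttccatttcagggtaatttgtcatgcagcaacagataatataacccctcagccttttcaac
PITPNM2, chr12:123616570-123616869, plus strand: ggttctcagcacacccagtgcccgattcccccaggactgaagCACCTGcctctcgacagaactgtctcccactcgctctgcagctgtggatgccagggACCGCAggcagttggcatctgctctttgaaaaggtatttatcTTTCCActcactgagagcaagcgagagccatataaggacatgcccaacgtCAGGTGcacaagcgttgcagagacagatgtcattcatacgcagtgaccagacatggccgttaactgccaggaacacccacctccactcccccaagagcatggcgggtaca
LCK, chr1:32715571-32715870, plus strand: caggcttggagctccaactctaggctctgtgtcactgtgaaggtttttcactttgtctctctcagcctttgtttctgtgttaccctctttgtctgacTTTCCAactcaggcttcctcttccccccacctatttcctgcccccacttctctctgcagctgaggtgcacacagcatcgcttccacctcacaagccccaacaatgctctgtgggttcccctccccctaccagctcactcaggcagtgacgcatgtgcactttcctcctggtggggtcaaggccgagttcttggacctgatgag

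The NAPA window, 3.25 kb upstream of the TSS, holds 4 RUNX matches and 1 CACCTG match and no NFAT match. The PITPNM2 window, in an intron 17.8 kb downstream of the TSS, holds 1 RUNX, 2 CACCTG and 1 NFAT match. The LCK window, 1.12 kb upstream of the nearest LCK TSS, holds 1 NFAT match and none of the other 3 motifs.

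NFAT sites are shown aligned, because of the 18 motifs searched NFAT differed most from whichever of the 3 comparison sets was closest to the members. Each line is 30 bases on the strand that reads TGGAAA, named by the nearest protein-coding gene, for the 8 strongest members with a site, some regions being left out as the methods say. Where a member held several sites, the one nearest its mid-point is given.
BHLHE23, chr20:61641882-61641911, minus strand: cgggccaaacgcTGGAAAtaaacaagatgg
CX3CR1, chr3:39309533-39309562, minus strand: tgtagtggggcgTGGAAActccctcggtta
PITPNM2, chr12:123616698-123616727, minus strand: gctctcagtgagTGGAAAgataaatacctt
AFDN, chr6:168107027-168107056, minus strand: gataactgataaTGGAAAcaatagcaacta
LCK, chr1:32715656-32715685, minus strand: ggaagcctgagtTGGAAAgtcagacaaaga
UBASH3A, chr21:43841472-43841501, plus strand: gggaagagagccTGGAAAaacaccatcgtg
GRK7, chr3:141515529-141515558, plus strand: ttagaggcaccgTGGAAAgtatgcctcagc
MOCS1, chr6:40010008-40010037, plus strand: attcctccatcaTGGAAAcatgaaatatac

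The 6 capital letters are the only bases fixed by the search. The sites near PITPNM2, AFDN (a junction scaffold) and BHLHE23 lay 7, 45 and 39 bp from the mid-point of their region, while those near CX3CR1 (a chemokine receptor) and MOCS1 lay 107 and 128 bp away. RUNX sites, which of the NFAT, RUNX, CACCTG and ETS sites were the most centred in the members, are given in the same form for the 3 strongest members with one.
NAPA, chr19:48021581-48021610, minus strand: ccccacctgctcTGTGGTcaggacacagtg
BHLHE23, chr20:61641848-61641877, plus strand: gaaatgacctcaTGCGGTctccgcacgttc
CX3CR1, chr3:39309429-39309458, minus strand: gagggacccatcTGTGGTatcacgaggaga

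CACCTG is the E-box read by E proteins such as TCF3 and TCF12 and by ZEB factors, and its sites in the same 3 members are as follows.
NAPA, chr19:48021590-48021619, minus strand: caggctcaccccCACCTGctctgtggtcag
BHLHE23, chr20:61641915-61641944, plus strand: gagcgatgagcgCACCTGttcagcccctgc
CX3CR1, chr3:39309573-39309602, minus strand: ttggtgagacacCACCTGggtaaaaccatc

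AP1 sites were few, and none of the 15 strongest members held one. With the same exclusions, the 2 strongest members with a site lay in introns near DHCR7 and LDLRAD4.
DHCR7, chr11:71129883-71129912, plus strand: agtcctctgcctTGAGTCActgtgttccag
LDLRAD4, chr18:13446632-13446661, plus strand: agctctcctctcTGACTCActgtcttgtca

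NFAT (TGGAAA) matches on either strand were found in the central 300 bp of 319 members, 37.2% (34.1 to 40.5). The share was 21.6% (19.7 to 23.6) where the peak was missing only in SW DMSO, 19.5% (15.7 to 24.1) where it was missing only in SW rottlerin and 20.4% (19.7 to 21.2) in the regions of all 4 lists. Across all merged regions of the series it was 27.9% (27.5 to 28.4). The members thus exceeded the 3 comparison sets by 15.7 points (11.9 to 19.5), 17.7 points (12.1 to 22.8) and 16.8 points (13.5 to 20.2). At least 2 NFAT matches were held by 62 members, 7.24%, against 2.56%, 1.18% and 2.98% of the same 3 sets. Of all merged regions, 5.34% held as many. With the core spelled GGAAAA, a choice made after seeing the data, the shares were 33.0% in the members and 23.7%, 22.5% and 24.8% in the sets, so the difference from the regions of all 4 lists was 8.21 points. Across all merged regions this spelling was found in 29.3% (28.9 to 29.8), close to the members' interval of 29.96 to 36.2. NFAT was singled out from 18 motifs after the values were seen, and the 4 sets share libraries, so these are descriptions of the lists at hand.

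The higher NFAT share of the members was present at promoters and away from them. Over 1 kb from a TSS it was 40.1% in the members against 24.2%, 20.6% and 27.1% in regions missing in SW DMSO, missing in SW rottlerin and present in all 4 lists. Within 1 kb of a TSS the shares were 29.8% against 15.2%, 16.5% and 16.3%, so the members were highest in both settings. By base composition, the members held NFAT matches in 46.0% of windows of up to 45% GC and in 40.7% of those between 45% and 55%, against 31.3% and 25.5% of the regions of all 4 lists. In windows over 55% GC the members' 17.1% and the 13.4% of the regions of all 4 lists differed by 3.75 points. The interval ran from −0.833 to 9.49, so no difference from that set was resolved there. In the same windows, regions missing only in SW DMSO had 10.7%, which is 6.45 points (0.882 to 12.7) below the members. Regions missing only in SW rottlerin had 17.4%, so the members were not higher than these.

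The strength of the peaks was compared in the same way, since the members were weaker than the regions of all 4 lists. Among regions whose lowest −log10 q in their 3 lists was at least 5, the NFAT share was 36.6% of 131 members against 18.3% of 6775 regions of all 4 lists. Between 3 and 5 it was 35.7% against 22.7%, and below 3 it was 38.8% against 25.7%. The members' share was therefore similar from weak to strong peaks and stood above the other set in each of the 3 bands.

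NFAT matches also gathered near the middle of the members. In the central 100 bp there were 17.04 sites per 100 members, against 9.10 in the outermost 100 bp of a 500 bp window, a ratio of 1.87. The same ratio was 0.723 for regions missing only in SW DMSO, 0.885 for those missing only in SW rottlerin and 0.92 for regions of all 4 lists, so in these sets NFAT letters were no denser in the middle than at the edges. Over all merged regions of the series there were 12.19 sites per 100 regions in the centre and 10.15 at the edges, so some gathering near the middle was seen outside the members too. The mid-point is that of the merged region and not of a summit, which blurs positions in wide regions.

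**Figure D1:**
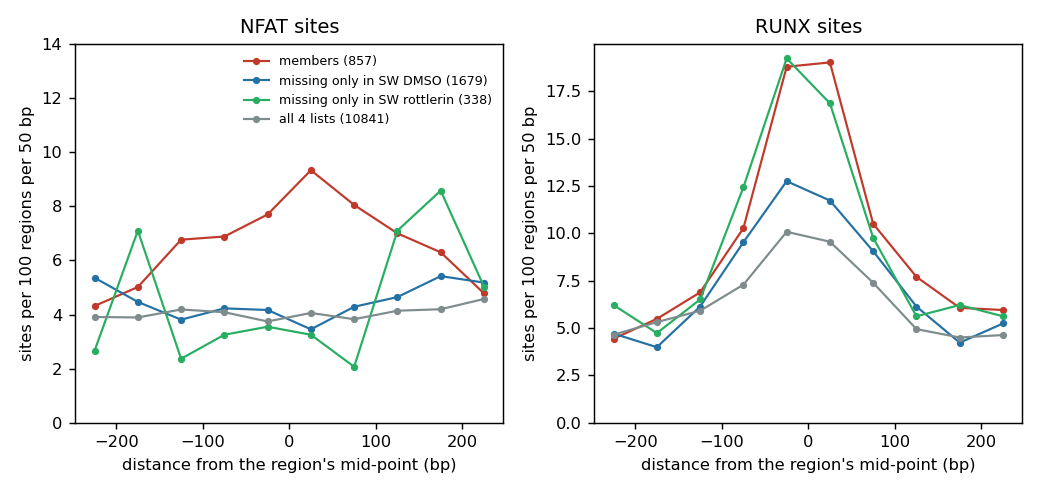
Sites per 100 regions in each 50 bp of a 500 bp window, by distance in bp from the region's mid-point, for NFAT (left) and RUNX (right), with 1 line for each of the 4 sets. Of the 4 sets drawn, NFAT sites peak in the middle of the members alone, at 9.33 per 100 regions just past the mid-point, while RUNX sites peak in the middle of every set.

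RUNX matches, the letters bound by the RUNX factors that shape T cell enhancers, were the most frequent of the 18 motifs in the members, at 50.9% (47.5 to 54.2) or 436 regions. The shares were 41.6% where the peak was missing only in SW DMSO, 48.8% where it was missing only in SW rottlerin and 34.2% in the regions of all 4 lists, with 37.9% in all merged regions. The members did not stand apart from regions missing only in SW rottlerin, with a difference of 2.06 points (−4.22 to 8.31). Against the regions of all 4 lists, the difference of 16.7 points fell to 3.61 (−0.609 to 7.75) over 1 kb from a TSS, where 56.4% of members and 52.8% of the other set held a site. Within 1 kb of a TSS it was 13.8 points (7.87 to 20.2), from 36.6% and 22.7%. RUNX sites were 3.64 times as dense in the central 100 bp of the members as at the edges, against 2.46 times in regions missing only in SW DMSO, 3.05 times in those missing only in SW rottlerin, 2.12 times in the regions of all 4 lists and 2.61 times over all merged regions.

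NFAT and RUNX matches occurred together in 181 members, 21.1% (18.5 to 24.0). The pair was found in 8.64% of regions missing only in SW DMSO, 9.17% of those missing only in SW rottlerin and 8.03% of regions of all 4 lists. NFAT with AP1, the pair known from composite sites in cytokine genes, was found in 25 members, 2.92% (1.98 to 4.27), against 0.596%, 2.07% and 1.77% of these sets. Over all merged regions the share was higher than in the members, at 4.15% (3.97 to 4.35), while that of NFAT with RUNX was 11.2%. The single shares of these motifs also differ between the sets, and pairing beyond what they give was not tested.

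ETS matches (CCGGAAG or CAGGAAG), read by ETS1, ELF1 and GABPA, ran the other way. They were found in 136 members, 15.9% (13.6 to 18.5), against 28.8%, 22.8% and 27.4% of the 3 sets, which are differences of −12.9 points (−16.1 to −9.55), −6.91 points (−12.2 to −2.01) and −11.5 points (−13.9 to −8.77). All merged regions had 24.0%. The NFAT and the ETS letters share GGAA but differ in the base before it, so no GGAA was counted for both. Away from promoters the members' ETS share was 15.3% against 25.1% in the regions of all 4 lists, and in windows of up to 45% GC it was 8.45% against 19.9%. The members held the fewest ETS sites of the 4 sets in each of the 3 bands of GC content and on both sides of 1 kb from a TSS, although the intervals of the differences from regions missing only in SW rottlerin included 0 in windows over 45% GC and within 1 kb of a TSS.

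CACCTG was found in 257 members, 29.99% (27.02 to 33.1), against 21.4%, 26.0% and 20.02% of the 3 sets and 21.4% of all merged regions, and the difference from regions missing only in SW rottlerin, 3.95 points, had an interval from −1.80 to 9.36. AP1 was found in 74 members, 8.63% (6.93 to 10.7), against 3.34%, 6.80% and 6.70% of the sets and 13.2% of all merged regions. Over 1 kb from a TSS the AP1 share of the members, 9.37%, was below the 12.5% of the regions of all 4 lists, and within 1 kb it was above, at 6.72% against 3.12%. GATA letters (AGATAA or TGATAA) were in 26.5% of members, below the 37.5% of regions missing only in SW DMSO and the 31.5% of all merged regions. They exceeded the 19.8% of the regions of all 4 lists, but over 1 kb from a TSS the order turned, with 30.2% in the members and 35.9% in that set. The promoter letters of SP and KLF factors (GGGCGG) were in 21.0% of the members and 44.98% of the regions of all 4 lists. Regions missing only in SW DMSO had 21.7% and those missing only in SW rottlerin 11.5%. MYB letters (CAACTG and its common variants) differed little, at 32.3% against 33.8%, 34.6% and 28.8%, and CTCF matches were rare, at 2.22% against 3.34%, 2.07% and 1.301%.

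**Figure D2:**
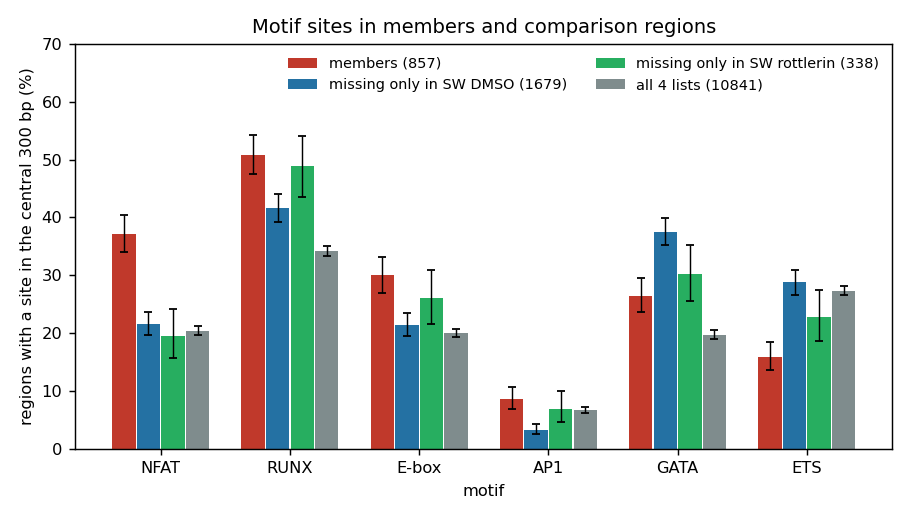
Percentage of regions with at least 1 site in the central 300 bp for 6 motifs (E-box is CACCTG) in the 4 sets, whose numbers of regions are in the legend. Bars are shares and whiskers their 95% Wilson intervals, and the members are highest for NFAT (37.2%) and lowest for ETS (15.9%).

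In each of the 3 lists that hold them, most members were weaker than the median peak. The lowest, median and highest −log10 q of the members were 1.08, 4.59 and 19.7 in NS DMSO, 1.12, 4.39 and 17.9 in SW DMSO, and 1.09, 4.65 and 19.5 in SW rottlerin. The medians of the regions of all 4 lists were 8.22, 7.93 and 10.1 in these lists. Fold enrichment over the input was alike in the 3 lists, with medians of 3.86, 3.84 and 3.83 in the members. In the list of NS DMSO peaks the median member stood at percentile 37.9. There, 61 members (7.12%) were among the strongest 25% of that list's peaks and 261 (30.5%) among the weakest 25%. The median member stood at percentile 37.7 in SW DMSO and 42.55 in SW rottlerin.

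Strength and absence went together. Where the lowest −log10 q of the 3 lists lay between 1 and 2, 26.6% (23.4 to 30.2) of the regions had no NS rottlerin peak, and the share was 9.16% between 4 and 5, 3.05% between 6 and 8 and 0.237% between 10 and 15. None of 1066 regions at 15 or more lacked the peak, which allows a share of up to 0.281% by a limit of 3 counts. Peaks missing only in SW DMSO and only in SW rottlerin showed the same decline from 42.6% and 15.1% in the weakest band, so the decline is not particular to the NS rottlerin list. The lowest of the 3 values was at least 5 in 131 members and at least 8 in 10 members, and below 2 in 171. How much of the set arises from peaks near the calling threshold was not tested.

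**Figure D3:**
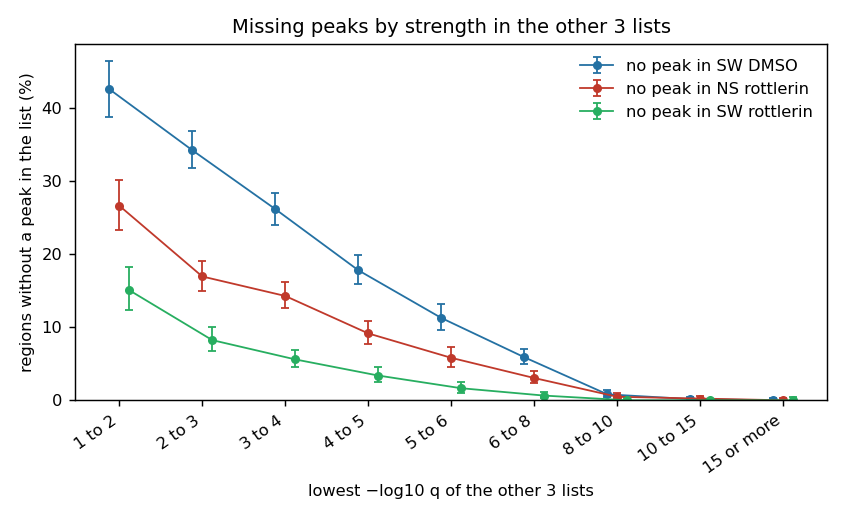
Percentage of regions without a peak in 1 list, among regions with a peak in the remaining 3, by the lowest −log10 q of those 3 lists. Points are shares with 95% Wilson intervals, and all 3 lines fall, that of NS rottlerin from 26.6% to 0 of 1066 regions.

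The members near the edge of the rule show what it turned on. The member in an intron near ATP2B4, a plasma membrane calcium pump, lay 62 bp from an NS rottlerin peak. Members near BACH2, a repressor of T cell effector genes, and CLEC2B, a lectin of activated lymphocytes, lay 420 and 590 bp from one. In all, 21 members had an NS rottlerin peak within 1 kb, and the median gap to the nearest was 19252 bp. Just outside the rule were regions near ITGA4 (an integrin chain), RPL12 (a ribosomal protein) and KLHL42, which had NS rottlerin peaks with −log10 q of only 1.07, 1.09 and 1.15. Their lowest values in the 3 lists that hold the members were 1.60, 2.16 and 2.68.

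The strongest members were ranked by the lowest of their 3 −log10 q values. The first lay upstream of NAPA (chr19:48021454-48021745), with −log10 q of 13.1 in NS DMSO, 12.6 in SW DMSO and 14.7 in SW rottlerin. Its fold enrichment was 5.27, 5.22 and 5.63 in the same order, so the 3 lists were close. The second lay in an intron of LINC01749, 3.55 kb upstream of BHLHE23, a neural bHLH factor (chr20:61641747-61642124), with fold enrichment of 6.64, 5.81 and 5.10. NS DMSO was highest there and SW rottlerin lowest. The third lay 12.1 kb into the CX3CR1 locus (chr3:39309195-39309686), at 4.97, 4.66 and 4.92, which is nearly level.

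The member near MTSS1, a regulator of actin at the membrane, came next (chr8:125649754-125650215). Its fold enrichment was 4.86 in NS DMSO, 5.53 in SW DMSO and 6.002 in SW rottlerin, lowest in NS DMSO. PITPNM2 (chr12:123616437-123617002) had the opposite order, with 5.74 in NS DMSO, 4.28 in SW DMSO and 4.75 in SW rottlerin. The AFDN member, 120 kb upstream (chr6:168106955-168107219), was nearly level at 4.92, 4.55 and 4.78.

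Of the next 4 members, 3 lay at start sites. Those of SNW1 (a splicing and transcription cofactor), MTRR (methionine synthase reductase) and DRAM2 (an autophagy protein) lay within 0.288 kb of a coding TSS, and the windows of all 3 held at least 64% GC. The MTRR member had fold enrichment of 5.18, 4.98 and 6.68 in NS DMSO, SW DMSO and SW rottlerin, highest in SW rottlerin. The remaining one, near SLC25A37, a mitochondrial iron carrier, lay in an exon with values of 6.46, 5.34 and 5.79.

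LCK and UBASH3A, a phosphatase-related suppressor of T cell receptor signalling, ranked eleventh and twelfth. The LCK member (chr1:32715585-32715857) had fold enrichment of 4.31 in NS DMSO, 3.94 in SW DMSO and 3.87 in SW rottlerin. That of UBASH3A (chr21:43841261-43841560), in an intron 17.4 kb from the TSS, had 4.27, 5.41 and 6.09. LCK was therefore highest in NS DMSO and UBASH3A lowest there, and both windows held an NFAT match. SLC25A25 (a mitochondrial carrier), C1orf127 and PSAP (the saposin precursor) completed the 15, with lowest −log10 q of 7.84, 7.77 and 7.67.

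**Figure D4:**
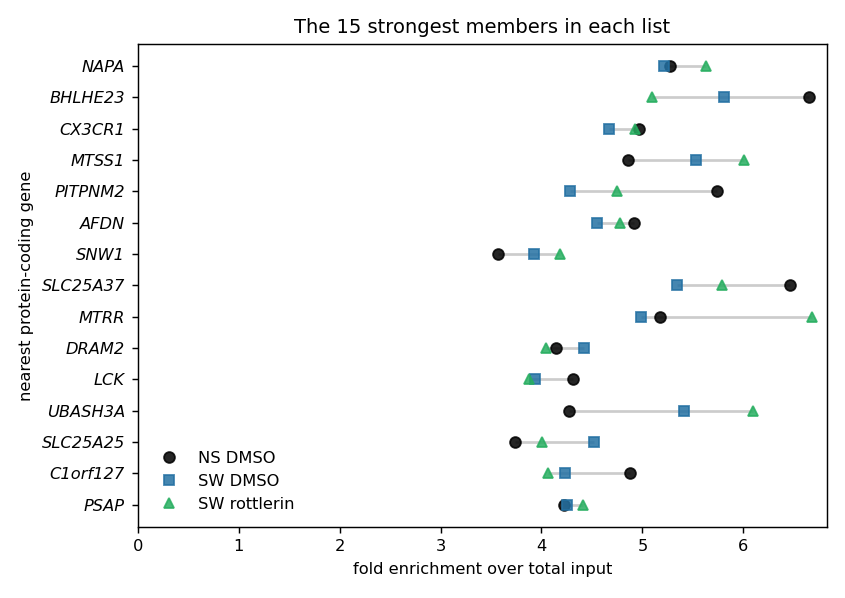
Fold enrichment over the total input of the 15 strongest members in the lists NS DMSO, SW DMSO and SW rottlerin, 1 library each, named by the nearest protein-coding gene. NAPA and PSAP are nearly level across the 3 lists, whereas BHLHE23 and PITPNM2 are highest in NS DMSO and UBASH3A in SW rottlerin.

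Between the 3 lists that hold them, the members differed little as a group. The median ratio of fold enrichment to NS DMSO was 0.983 (0.968 to 1.00) in SW DMSO and 0.993 (0.977 to 1.01) in SW rottlerin. In SW DMSO, 107 members (12.5%) were at least 25% above NS DMSO and 119 (13.9%) at least 20% below it, which is the same fold either way, against 8.37% and 11.3% of the 12550 regions with both peaks. In SW rottlerin, 120 members were above and 124 (14.5%) below, against 18.3% and 7.20% of the 14037 regions with both peaks, whose median ratio was 1.062. Higher values in SW rottlerin were therefore no more frequent than lower ones in the members, unlike in the whole series. Regions missing only in SW DMSO lay in between, with 13.9% above, 10.4% below and a median ratio of 1.015. With lists of equal length the regions that met the rule had median ratios of 1.123 (1.102 to 1.14) in SW rottlerin and 1.028 (1.01 to 1.04) in SW DMSO, so the direction depends on list length. In 461 members (53.8%) the highest of the 3 values was at most 25% above the lowest. NS DMSO was the highest list in 334 (39.0%), SW rottlerin in 296 (34.5%) and SW DMSO in 227 (26.5%). These shares were not counted over other regions, so they are not read as a trait of the members.

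**Figure D5:**
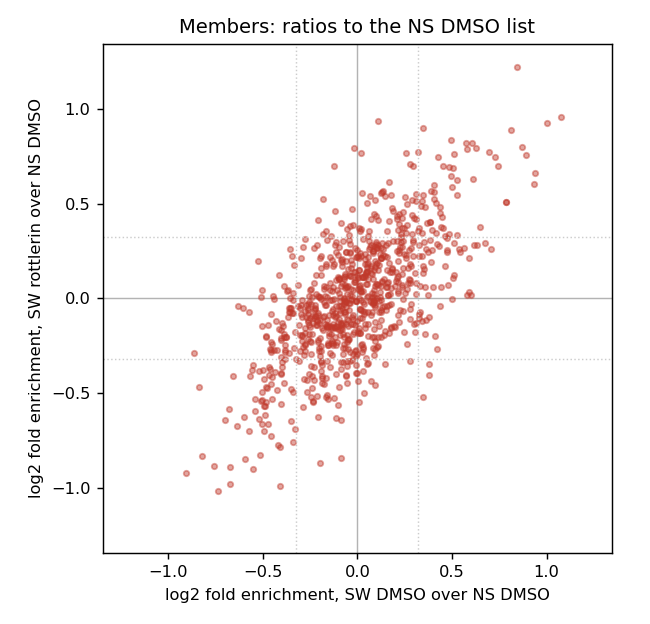
Log2 ratio of fold enrichment of SW rottlerin (vertical) and SW DMSO (horizontal) over NS DMSO for the 857 members, 1 point each, with dotted lines at 25% above and 20% below equal values. Both axes share the NS DMSO value, so the slope of the cloud is no result, and the points centre near 0 with median ratios of 0.983 and 0.993.

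A few members differed by about 2-fold. AFAP1, an actin-binding adaptor, had a member 21.1 kb upstream with fold enrichment of 2.89 in NS DMSO, 6.10 in SW DMSO and 5.62 in SW rottlerin. Members at the start sites of DHDH and VPS16 had ratios of 2.00 and 1.92 in SW DMSO. The highest ratios in SW rottlerin were 2.33 near H2AZ2 (a variant histone), 1.94 near AFAP1 and 1.92 near PIM1, a kinase induced by cytokines, where the values were 4.16, 4.49 and 7.97. NS DMSO, the lowest list at all these members, had −log10 q of 1.485 near AFAP1, 1.413 at DHDH and 1.699 at VPS16. These are close to the calling threshold, while H2AZ2 had 2.143 and PIM1 3.327.

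At the other end, the member near SHQ1 had 6.55 in NS DMSO, 3.50 in SW DMSO and 3.45 in SW rottlerin. MEIG1 and MED15, a Mediator subunit, had ratios of 0.549 and 0.559 in SW DMSO. The lowest ratios in SW rottlerin were 0.493 near COL25A1, 0.503 near STK38L and 0.506 near RCN1. In STK38L the values were 7.08 in NS DMSO, 5.33 in SW DMSO and 3.56 in SW rottlerin, so the 2 SW lists also differed from each other. The list with the lowest value had −log10 q of 1.297 at MEIG1 and 1.67 at MED15 (SW DMSO). In SW rottlerin it was 1.128 near RCN1, 1.657 near COL25A1, 2.737 near SHQ1 and 3.065 near STK38L.

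Within the members, NFAT and CACCTG shares differed with the ratio of SW rottlerin to NS DMSO. The split was made in the members alone, so whether all regions with both peaks show the same was not tested. NFAT matches were in 50.8% (42.0 to 59.6) of the 120 members at least 25% higher in SW rottlerin than in NS DMSO, in 35.9% of the 613 between and in 30.6% (23.2 to 39.2) of the 124 at least 20% lower. CACCTG ran the other way, with 25.0% (18.1 to 33.4), 27.9% and 45.2% (36.7 to 53.9). RUNX was level at 53.3%, 49.9% and 53.2%. By the ratio of SW DMSO the NFAT shares were 39.3%, 37.4% and 34.5% and the CACCTG shares 30.8%, 28.7% and 36.1%, with overlapping intervals.

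The members lay mostly away from promoters. By their mid-points 56.5% (53.1 to 59.8) were in introns, 15.2% in intergenic sequence, 7.47% in promoters (up to 1 kb before a TSS), 7.35% up to 10 kb upstream, 6.77% in exons, 4.08% in 5′ untranslated sequence and 2.68% in 3′ untranslated sequence. Within 1 kb of a TSS there were 238 members, 27.8% (24.9 to 30.86), close to the 29.7% and 25.1% of regions missing only in SW DMSO and only in SW rottlerin and well below the 61.8% (60.8 to 62.7) of regions of all 4 lists. Across all merged regions the share was 32.0%. The median distance to a TSS was 4443 bp in the members and 210 bp in the regions of all 4 lists. It was 4336 bp over all merged regions, and 4427 and 5172 bp in regions missing only in SW DMSO and only in SW rottlerin. Introns held 55.8% and intergenic sequence 14.25% of all merged regions, close to the members' shares.

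The windows of the members had a median GC content of 47.0% against 46.3% in all merged regions and 57.0% in regions of all 4 lists. CpG-island-like windows (over 50% GC and an observed to expected CpG ratio over 0.6) made up 15.8% (13.5 to 18.3), against 19.5%, 7.69% and 50.2% in the sets missing SW DMSO, missing SW rottlerin and present in all 4 lists. The share over all merged regions was 21.0% (20.6 to 21.4), above that of the members. The median width was 322 bp, and the widest members, near MYO1A, C10orf105 and ALDH1A2, measured 1847, 1793 and 1790 bp.

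By chromosome, leaving aside Y with only 4 regions of the 3 lists, absence ranged from 3.12% (2.09 to 4.64) of the regions of the 3 lists on chromosome 19, which is dense in genes, to 10.2% (7.60 to 13.6) on chromosome 4. Genes with 3 or more members within 50 kb were few. They were MTSS1, with 3 of its 14 regions, and the neighbours CDH15, SLC22A31 and ZNF778 on chromosome 16, which share the same 3 members.

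Genes of T cell function were then read from 8 lists, in order of their role. Of all 20110 protein-coding genes, 1386, or 6.89%, had a member within 50 kb of a TSS. The listed genes may have more accessible regions around them than most, which was not counted. Each list is therefore also given as the share of members among the nearby regions of the 3 lists. That share is 7.33% over the whole genome. No test was made on any list.

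For the T cell receptor and its proximal signals, 6 of 37 genes had a member, LCK, UBASH3A, CD28, PRKCH, SLA2 and PTPRC, and members were 5.66% of the 106 regions there. CD28, the main costimulatory receptor, had one 32.3 kb upstream with fold enrichment of 4.46 in NS DMSO, 4.88 in SW DMSO and 5.18 in SW rottlerin. The order was the same as in UBASH3A, with NS DMSO lowest. PRKCH is itself a protein kinase C isoform, and PTPRC encodes the phosphatase CD45.

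Among cytokine and homing receptors, 8 of 36 genes had a member, and members were 12.7% of 63 regions. One at the IL21R start, which is also within 50 kb of IL4R, had fold enrichment of 3.61, 3.83 and 3.63 in NS DMSO, SW DMSO and SW rottlerin. The member 38.4 kb upstream of CTLA4, an inhibitory receptor, had 4.28, 5.30 and 4.35, highest in SW DMSO. CCR7 (a lymph node homing receptor), IL10RA, S1PR1, IL2RB and CXCR4 also had members. CXCR4 had 2, both near a start site.

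Among cytokines and chemokines, 4 of 26 genes had a member, CXCL10, IL5, FASLG and CD40LG, 16.7% of only 24 regions. FASLG, the death ligand of activated T cells, had a member 49.4 kb away with fold enrichment of 3.10 in NS DMSO, 3.87 in SW DMSO and 5.29 in SW rottlerin, and its window held 2 NFAT matches. The IL5 member lay within 1 kb upstream of the nearest annotated IL5 TSS, with 3.14, 3.08 and 3.23. Its mid-point fell in 5′ untranslated sequence, which may belong to another gene, so it is not read as the IL5 promoter. The CXCL10 member, 32.5 kb away, had 3.62, 4.25 and 4.53.

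Of the factors that act downstream of the receptor (AP1, NFAT, NFkB and EGR genes), 2 of 27 had a member, and members were 4.92% of 61 regions. NR4A1, an orphan receptor induced within minutes of stimulation, had one 6.94 kb upstream of its nearest TSS with fold enrichment of 3.54 in NS DMSO, 4.20 in SW DMSO and 4.16 in SW rottlerin. The mid-point of that member fell in 3′ untranslated sequence, which may belong to another gene. FOS had one in its promoter, 0.199 kb before the TSS, with 2.83, 3.52 and 3.79, and a second within 50 kb upstream with 3.33, 4.11 and 3.03. NS DMSO was thus the lowest list at the FOS promoter and at NR4A1.

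Of the T-lineage and leukaemia factors, 10 of 37 genes had a member, which is 12 regions or 10.9% of 110. The genes were TCF12, RUNX3, BCL11B, TCF7, BACH2, ETS1, RUNX1, IKZF3, TCF3 and IKZF1. TCF12, an E protein, had the strongest, in an intron, with fold enrichment of 6.35 in NS DMSO, 5.63 in SW DMSO and 4.65 in SW rottlerin. RUNX3 had one 32.6 kb upstream, with 3.68, 3.15 and 3.46, and BCL11B, a repressor needed for T cell identity, one with 3.21, 3.33 and 3.54. TCF12 was highest in NS DMSO and lowest in SW rottlerin, while RUNX3 and BCL11B had a highest value less than 25% above the lowest.

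The MAP kinase feedback genes with a member were 4 of 21, DUSP2, TRIB3, SPRED1 and PIM1, 10.3% of 39 regions. DUSP2, a nuclear phosphatase of MAP kinases, had one in its promoter, with fold enrichment of 3.30 in NS DMSO, 3.54 in SW DMSO and 3.97 in SW rottlerin. TRIB3 had one with 4.31, 3.30 and 3.74, highest in NS DMSO. SPRED1, an inhibitor of RAF activation, had one with 4.32, 4.55 and 3.75.

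Of the cell death and survival genes, 5 of 23 had a member, BAK1, PMAIP1, BID, BAX and MCL1, 9.43% of 53 regions. BAK1, a pore-forming killer protein, had one at a start site with fold enrichment of 4.20, 3.79 and 3.95, and PMAIP1 (NOXA) had one 23.3 kb away with 4.251, 3.703 and 3.932 in NS DMSO, SW DMSO and SW rottlerin. The member counted for BAX is the one at the DHDH start. Of the 18 genes for which the study designed FAIRE primers, a list chosen by the study on these samples, 5 had a member, DUSP2, TRIB3, BACH2, CREB5 and FASLG, 13.9% of 36 regions. The CREB5 member had 3.98, 4.22 and 3.24 in NS DMSO, SW DMSO and SW rottlerin.

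The set itself depends on where the lists end. When each list was shortened to its 18977 highest-scoring peaks, 779 regions met the rule and 472 of the 857 members were among them. With the higher-scoring 50% of each list, 438 regions met it and only 81 of the members remained. The NFAT share was 33.9% and 26.5% in these sets, and in both it stayed above that of the regions of all 4 lists, by 8.79 points with the higher-scoring 50%.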

How the data were processed

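FAIRE-seq of Jurkat cells was done in 9 samples, and the peak lists of 4 were used. The 5 samples without a list were not used here. Per the methods and the submitters' processing notes, the authors used CutAdapt to trim reads, Bowtie2 to align them to hg19, Picard to remove duplicates and MACS2 to call broad peaks against the total input. The deposited lists hold, for every peak, a fold enrichment (ratio to input), a p-value and a q-value as −log10, and a score, which is the −log10 q times 10 with its decimals cut. The authors' stated q-value cut-off is 0.05, while the highest q-value in the lists lay between 0.0946 and 0.0983. All peaks were kept, which can add weak peaks to some lists and not to others. Duplicate removal and a shared input hold for every list, and depth, which sets how many weak peaks are called, is unknown.

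Peaks on chromosomes 1 to 22, X and Y that overlapped by at least 1 bp or touched were merged, and a region took the highest value of each list in it. Of 40731 merged regions, 28 on other sequences were left out. Each mid-point was given the first class that held it, from untranslated sequence (5′ before 3′) through exon, intron and promoter to the 10 kb upstream, and otherwise intergenic, by GENCODE release 44 lifted to GRCh37. Sites of 18 motifs were sought as letters on both strands of the central 300 bp. Besides those spelled out in the results, the motifs were CAGCTG and the E-box CATCTG, CTCF, NFkB, NRF1, EGR (GCGTGGG), TCF/LEF (ATCAAAG), NFY (CCAAT), YY1 (AAGATGGC) and CREB (TGACGTCA or TGACGTAA). Sites of different motifs may share bases. Shares have 95% Wilson intervals, medians have intervals from order statistics and differences have Newcombe intervals. Each group is 1 library, so no test was made.

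The members and the gene and motif lists were chosen with earlier results of these data known. Named genes are those near the 15 strongest members, the list genes with a member within 50 kb of a TSS (values for the 3 strongest members of a list), the 3 highest and lowest ratios, the 3 members nearest the rule's limit on each side, the 3 widest, and genes with 3 or more members. The functions for merging, assignment and motif search were tested on simulated data. Lists of equal length, the higher-scoring 50% of peaks, a q-value limit, a 1 kb margin, autosomes alone, touching peaks kept apart, other gene models, a 500 bp window, mean values and a second NFAT spelling were tried. Tools were samtools 1.23.1 and pysam 0.24.0 for sequence, pandas 2.3.3, numpy 2.4.6 and scipy 1.17.1 for tables and intervals, and matplotlib 3.10.9 for figures, under Python 3.11.15. Sequences printed come from the GRCh37 genome, and members on chromosome 8 or in untranslated sequence were passed over for printing.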

Additional observations from a re-analysis of the deposited data

How the results depend on the processing

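Across 11 alternatives, 100 of 132 recomputed values stayed within the 95% interval of the value given or, for counts and differences, within 1.5 times of it, and no difference between the members and the regions of all 4 lists changed sign. With the 18977 highest-scoring peaks of each list, the median ratio to NS DMSO was 1.028 in SW DMSO and 1.123 in SW rottlerin, 35.04% of regions lay within 1 kb of a TSS at a median distance of 3823 bp, 68.29% in introns or intergenic sequence, and 20.92% were CpG-island-like, with NFAT in 33.89% and CACCTG in 25.8%. With the higher-scoring 50% of each list, 438 regions and 18 listed genes (40 in the main result) remained, the median −log10 q in NS DMSO was 8.016, the SW rottlerin ratio 1.016, the TSS share 49.32%, the TSS distance 1174 bp, the intron and intergenic share 60.05%, the CpG-island-like share 37.21%, and NFAT, RUNX and AP1 shares 26.48%, 46.12% and 6.849%. Coding genes alone gave 22.4% near a TSS and a distance of 8653 bp, and promoters placed first gave 63.71% in introns or intergenic sequence. In 500 bp, where longer sequence holds more matches, the shares were 49.01% for NFAT, 23.8% for ETS, 61.38% for RUNX, 41.42% for CACCTG and 12.84% for AP1. The second NFAT spelling gave 33.02%. The cause of the moves with list length was not tested. No paired analysis was possible because each group has 1 library. For the same reason no replicate could be left out, and depth limits which weak peaks were called.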
